A study of Arabidopsis thaliana with 9 samples.

Results

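The 8 genes described here encode homeodomain-leucine zipper class IV (HD-ZIP IV) transcription factors of Arabidopsis thaliana. They are ATML1, PDF2, HDG1, HDG2, HDG5, HDG11, HDG12 and GL2, taken by locus identifier from the 33610 genes of the deposited table, and all 8 were found in it and matched by locus tag to the gene symbol. The set was put together with the lower ATML1 level of VQ28OE9 leaves against WT leaves already known. ATML1 is therefore given as a description with no test in every comparison, and all 8 genes are so given for VQ28OE9 against WT.

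HD-ZIP IV proteins carry a homeodomain that binds DNA, a leucine zipper through which they pair, and a START domain, a fold known for binding lipids. In plants most of them act in the outermost cell layer, the L1 layer, which becomes the epidermis with its pavement cells, trichomes and guard cells. ATML1 and PDF2 are a near-duplicate pair that specifies epidermal identity, and they bind an 8-base element called the L1 box in the promoters of epidermal genes, that of ATML1 included.

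Messenger RNA was measured in detached rosette leaves of 30-day-old plants that had not been infected, in 3 genotypes with 3 libraries each. VQ28OE9 is labelled as an overexpression line of VQ28, VQ28KO12 as a knockout line of the same gene, and WT is the wild type Col-0. VQ28 encodes a VQ motif protein, a class of small plant proteins that bind WRKY transcription factors. Each altered genotype is 1 line, how it was made is not stated in the labels, and nothing in the labels ties the 3 libraries of a genotype to separate plants. A p-value here therefore reflects how these libraries vary, and that variation may be technical.

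The libraries held 64552605 to 95223547 deposited count units and 20510 to 20956 genes above 0. About 4 units were taken as 1 sequenced fragment, an inference from low values that are often multiples of 4. VQ28 stood at 4665 to 6244 FPKM (fragments scaled to transcript length and library size) in VQ28OE9, at 8.36, 10.2 and 0 FPKM in the libraries labelled VQ28KO12, and at 8.70, 0.456 and 6.72 FPKM in WT. Replicates 1 and 2 labelled VQ28KO12 thus held VQ28 mRNA at levels like those of WT replicates 1 and 3, and all directions drawn from these libraries are those of libraries labelled VQ28KO12. VQ28OE9 replicate 3 and WT replicate 3 were set apart by the second principal component over the tested genes, at -37.8 and -33.6 against -7.60 to 22.4 for the other 7 libraries. AT2G01010, a gene of the small-subunit ribosomal RNA, had 122 units in WT replicate 3, against 20000 to 77475 units in the other 8 libraries, and the part of this in the member values was not tested. Member values, and list calls that these libraries end, are given with and without them. The leaf label was met by the mesophyll marker RBCS1A, a small Rubisco subunit gene at 7789 to 12160 FPKM, while 7 markers of shoot meristem and flower summed to at most 0.107 FPKM in any library.

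The members share the homeodomain, and the stretch that encodes its DNA-contacting recognition helix shows how near each is to ATML1. The 60 coding bases below were read from the RefSeq annotation of TAIR10.1, 5′ to 3′ on the coding strand. Capitals mark bases that differ from ATML1 at the same place. Each stretch spans an intron in the genome, so positions are given as coding bases counted from the start codon.
ATML1, coding bases 304 to 363: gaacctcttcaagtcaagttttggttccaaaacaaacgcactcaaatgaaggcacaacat
PDF2, coding bases 304 to 363: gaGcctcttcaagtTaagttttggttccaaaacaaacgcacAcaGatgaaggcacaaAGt
HDG2, coding bases 310 to 369: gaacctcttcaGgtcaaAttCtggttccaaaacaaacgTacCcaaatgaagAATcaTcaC
HDG5, coding bases 451 to 510: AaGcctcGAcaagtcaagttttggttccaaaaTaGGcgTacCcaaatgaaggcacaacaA
HDG1, coding bases 448 to 507: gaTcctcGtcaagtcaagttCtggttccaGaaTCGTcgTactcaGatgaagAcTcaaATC
HDG12, coding bases 181 to 240: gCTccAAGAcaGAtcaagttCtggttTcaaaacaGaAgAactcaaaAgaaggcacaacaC
HDG11, coding bases 214 to 273: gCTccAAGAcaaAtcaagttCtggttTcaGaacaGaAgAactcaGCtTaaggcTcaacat
GL2, coding bases 508 to 567: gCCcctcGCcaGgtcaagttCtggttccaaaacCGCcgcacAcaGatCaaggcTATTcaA
PDF2 differed from ATML1 at 6 of these 60 bases, HDG2 and HDG5 at 10 each, HDG1 and HDG12 at 15 each, and HDG11 and GL2 at 17 each. Over the whole aligned coding sequence, ATML1 and PDF2 were identical at 84.2% of 2207 bases and HDG11 and HDG12 at 80.8% of 2031 bases. The other pairs lay between 59.6% and 72.6%.

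Such likeness can matter for counting, because reads that fit a pair of genes equally well may be split or dropped. The longest run shared by the annotated transcripts of ATML1 and PDF2 was 28 bases, gtgatctttccgtgataacgagtcctga, and that of HDG11 and HDG12 was 29 bases. No pair of the 8 genes shared a 150-base word, the read length given in the labels' protocols, and each gene is reported on its own. How the authors handled reads with several matches is not stated in the files or labels.

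The L1 box was searched as TAAATGCA and TAAATGTA, on both strands, in the 1000 bases before each annotated gene start in TAIR10.1. A site matches 1 version only, and neighbouring sites may share bases. At least 1 box was found before 4329 of 27444 protein-coding genes, which is 15.8%, and before 2 of the 8 members, ATML1 and HDG2. These sites are shown with 10 bases on each side and the box in capitals, beside that of FDH, an epidermal gene outside the 8, because the box is the element through which ATML1 and PDF2 are known to act.
ATML1, chr4:11554520-11554547, plus strand: tataacagtaTAAATGTAtaatgaggac
HDG2, chr1:1518990-1519017, minus strand: atctaatagaTAAATGTAagtctcatag
FDH, chr2:11173315-11173342, minus strand: aaaattgtaaTAAATGCAaacataagat
The base of the box nearest the gene start lay 502 bases before it in ATML1 and 100 bases before it in HDG2, both on the strand of the gene. A match of 8 letters is a description of the sequence and shows no binding.

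ATML1 (AT4G21750, chromosome 4, 11555186 to 11560733, plus strand, coordinates of the deposited table) is the regulator of epidermal cell fate named first among the 8. Its level was 3.29, 4.94 and 4.90 FPKM in the 3 VQ28OE9 libraries, 15.3, 14.6 and 13.3 FPKM in those labelled VQ28KO12, and 9.06, 9.19 and 11.6 FPKM in WT. The 3 genotypes did not overlap, with VQ28OE9 lowest, WT between and the libraries labelled VQ28KO12 highest. The means were 4.38 ± 0.939 FPKM in VQ28OE9, 14.4 ± 1.01 FPKM in the libraries labelled VQ28KO12 and 9.96 ± 1.44 FPKM in WT (SD, n = 3 each). On the log2 scale of the fit over all genes, ATML1 was at -1.21 ± 0.17 (SE) in VQ28OE9 against WT, at 0.48 ± 0.17 in the libraries labelled VQ28KO12 against WT and at -1.69 ± 0.17 in VQ28OE9 against those labelled VQ28KO12. Without replicate 3 of VQ28OE9 and of WT these values were -1.17, 0.62 and -1.79, and with replicate 3 as the only library labelled VQ28KO12 they were -1.21, 0.42 and -1.63. In bulk leaf RNA, fewer epidermal cells and less ATML1 mRNA per epidermal cell cannot be told apart.

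PDF2 (AT4G04890, chromosome 4, 2476489 to 2482345, minus strand), the partner of ATML1 in specifying the epidermis, varied more within each genotype. It stood at 6.17, 7.93 and 4.75 FPKM in VQ28OE9, at 10.5, 7.66 and 10.4 FPKM in the libraries labelled VQ28KO12, and at 10.7, 7.08 and 6.88 FPKM in WT. Every pair of genotypes overlapped. Its log2 fold change was -0.41 ± 0.22 (SE) in VQ28OE9 against WT. In the libraries labelled VQ28KO12 against WT it was 0.17 ± 0.22, and in VQ28OE9 against those labelled VQ28KO12 it was -0.58 ± 0.22, neither past the threshold in edgeR's quasi-likelihood test (adjusted p = 1 and 0.167). Without replicate 3 of VQ28OE9 and of WT the 3 values were -0.35, 0.07 and -0.42 (adjusted p = 0.99 and 0.323 in the comparisons under test), and with replicate 3 as the only library labelled VQ28KO12 they were -0.41, 0.35 and -0.76 (adjusted p = 0.853 and 0.262). The threshold is a Benjamini-Hochberg adjusted p under 0.05 over the 16050 genes that averaged 1 FPKM or more.

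The ratio of ATML1 to PDF2, taken within each library on FPKM, was 0.533, 0.622 and 1.03 in VQ28OE9. It was 1.45, 1.91 and 1.28 in the libraries labelled VQ28KO12, and 0.848, 1.30 and 1.69 in WT. PDF2 was thus the more abundant of the pair in VQ28OE9 replicates 1 and 2 and in WT replicate 1, and ATML1 in all 3 libraries labelled VQ28KO12. The ratios of VQ28OE9 and WT overlapped.

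HDG1 (AT3G61150, chromosome 3, 22630608 to 22635123, plus strand) is linked to cuticle formation. It stood at 2.98, 2.47 and 2.24 FPKM in VQ28OE9, at 5.43, 6.47 and 4.89 FPKM in the libraries labelled VQ28KO12, and at 3.25, 3.49 and 5.90 FPKM in WT. All 3 VQ28OE9 libraries lay under the 6 others, and the other genotypes overlapped each other. HDG1 fell in VQ28OE9 against the libraries labelled VQ28KO12, by a log2 fold change of -1.10 ± 0.24 (SE; edgeR quasi-likelihood test, adjusted p = 0.0295). That call was lost without any single library of either genotype and with replicate 3 as the only library labelled VQ28KO12, where the log2 fold change was -0.95 with an adjusted p of 0.226, the highest over the 19 alternatives. Without replicate 3 of VQ28OE9 and of WT it was -1.01, with an adjusted p of 0.018. In the libraries labelled VQ28KO12 against WT the value was 0.36 ± 0.24 (adjusted p = 1), or 0.69 without replicate 3 of VQ28OE9 and of WT (0.401) and 0.21 with replicate 3 as the only library so labelled (0.925), and in VQ28OE9 against WT it was -0.74 ± 0.24, or -0.32 without replicate 3 of both.

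HDG2 (AT1G05230, chromosome 1, 1512896 to 1518805, minus strand) acts in trichome maturation and, with ATML1, in the stomatal lineage. Its level was 2.54, 3.12 and 2.36 FPKM in VQ28OE9, 4.87, 3.88 and 3.34 FPKM in the libraries labelled VQ28KO12, and 5.32, 2.93 and 4.93 FPKM in WT. VQ28OE9 lay under all libraries labelled VQ28KO12 but overlapped WT through WT replicate 2. The log2 fold change was -0.74 ± 0.23 (SE) in VQ28OE9 against WT. It was -0.18 ± 0.23 in the libraries labelled VQ28KO12 against WT and -0.56 ± 0.23 in VQ28OE9 against those labelled VQ28KO12, neither past the threshold (edgeR, adjusted p = 1 and 0.19). Leaving out replicate 3 of VQ28OE9 and of WT gave -0.56, -0.08 and -0.49 (adjusted p = 0.989 and 0.332 in the comparisons under test). With replicate 3 as the only library labelled VQ28KO12 the values were -0.74, -0.40 and -0.34 (adjusted p = 0.847 and 0.641). HDG2 overlaps AT1G05220 on the opposite strand, which averaged 0.0464 FPKM.

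**Figure D1:**
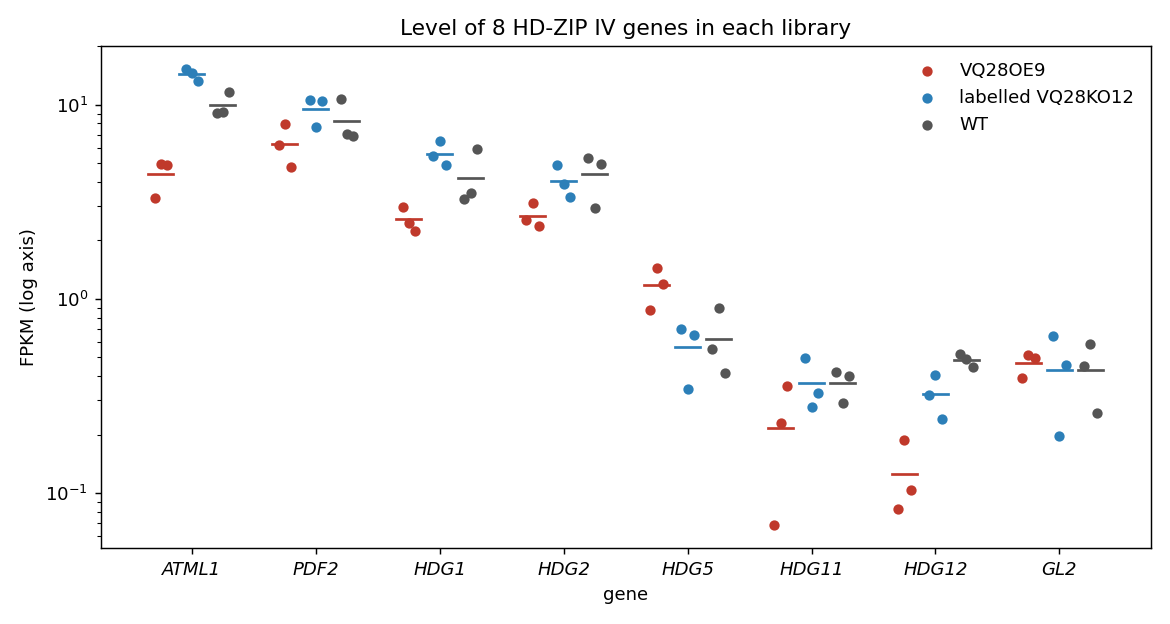
FPKM of the 8 members in each of the 9 libraries, on a log axis, with a bar at the mean of each genotype (3 libraries each). ATML1 has 3 separate groups, VQ28OE9 at 3.29 to 4.94 FPKM lowest and the libraries labelled VQ28KO12 at 13.3 to 15.3 FPKM highest, while HDG5 is the member whose VQ28OE9 mean is the highest of the 3 by the widest margin.

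The other 4 members averaged under 1 FPKM over the 9 libraries and were not tested. Their log2 fold changes come from a fit of all genes with a count and are given without p-values. HDG5 (AT5G46880), which acts with the other family members in epidermal differentiation, was at 0.871, 1.45 and 1.20 FPKM in VQ28OE9, at 0.701, 0.342 and 0.648 FPKM in the libraries labelled VQ28KO12 and at 0.553, 0.892 and 0.414 FPKM in WT. VQ28OE9 was above all libraries labelled VQ28KO12, by a log2 fold change of 1.07 ± 0.36 (SE), and overlapped WT, where the value was 0.89 ± 0.36. HDG5 was the only one of the 8 whose value in both comparisons of VQ28OE9 was positive by more than its SE.

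HDG12 (AT1G17920) and its near relative HDG11 (AT1G73360) limit trichome branching together. HDG12 was at 0.0827, 0.188 and 0.104 FPKM in VQ28OE9, 0.321, 0.407 and 0.239 FPKM in the libraries labelled VQ28KO12, and 0.518, 0.493 and 0.445 FPKM in WT. Its 3 genotypes did not overlap, but unlike ATML1 it was highest in WT, with log2 fold changes of -1.96 ± 0.43 in VQ28OE9 against WT and -0.64 ± 0.41 in the libraries labelled VQ28KO12 against WT (SE). Between the lines, VQ28OE9 was at -1.32 ± 0.43 against the libraries labelled VQ28KO12. Behind these levels stood 17 to 41 units in a VQ28OE9 library, 65 to 74 units in one labelled VQ28KO12 and 81 to 104 units in a WT library, so that a VQ28OE9 value rests on about 10 fragments or fewer. HDG11 was at 0.0681, 0.229 and 0.354 FPKM in VQ28OE9, 0.498, 0.279 and 0.326 FPKM in the libraries labelled VQ28KO12, and 0.419, 0.290 and 0.401 FPKM in WT, with overlap between all 3 genotypes. Its log2 fold change was -0.78 ± 0.52 in VQ28OE9 against WT, -0.06 ± 0.51 in the libraries labelled VQ28KO12 against WT and -0.72 ± 0.52 in VQ28OE9 against those (SE).

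GL2 (AT1G79840), which drives trichome growth and keeps root epidermal cells hairless, was at 0.390, 0.512 and 0.497 FPKM in VQ28OE9, 0.641, 0.196 and 0.456 FPKM in the libraries labelled VQ28KO12, and 0.450, 0.583 and 0.258 FPKM in WT. Its fitted log2 fold changes lay between -0.05 and 0.14, each within its SE of 0.44. Among these 4 low members, leaving out replicate 3 of VQ28OE9 and of WT put VQ28OE9 against WT at 0.65 for HDG5, -1.91 for HDG12, -1.27 for HDG11 and -0.23 for GL2. VQ28OE9 against the libraries labelled VQ28KO12 was then at 1.05, -1.21, -1.27 and 0.08 for the same genes, and those libraries against WT at -0.40, -0.70, 0.0035 and -0.31. With replicate 3 as the only library labelled VQ28KO12, that library against WT was at 0.07, -1.0, -0.17 and 0.09, and VQ28OE9 against it at 0.83, -0.96, -0.61 and 0.00018. GL2 in VQ28OE9 against WT and HDG5, HDG11 and GL2 in the libraries labelled VQ28KO12 against WT thus took either sign. The kit marked strand, but the files and labels do not state whether the counting used it, so the GL2 level is uncertain.

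**Figure D2:**
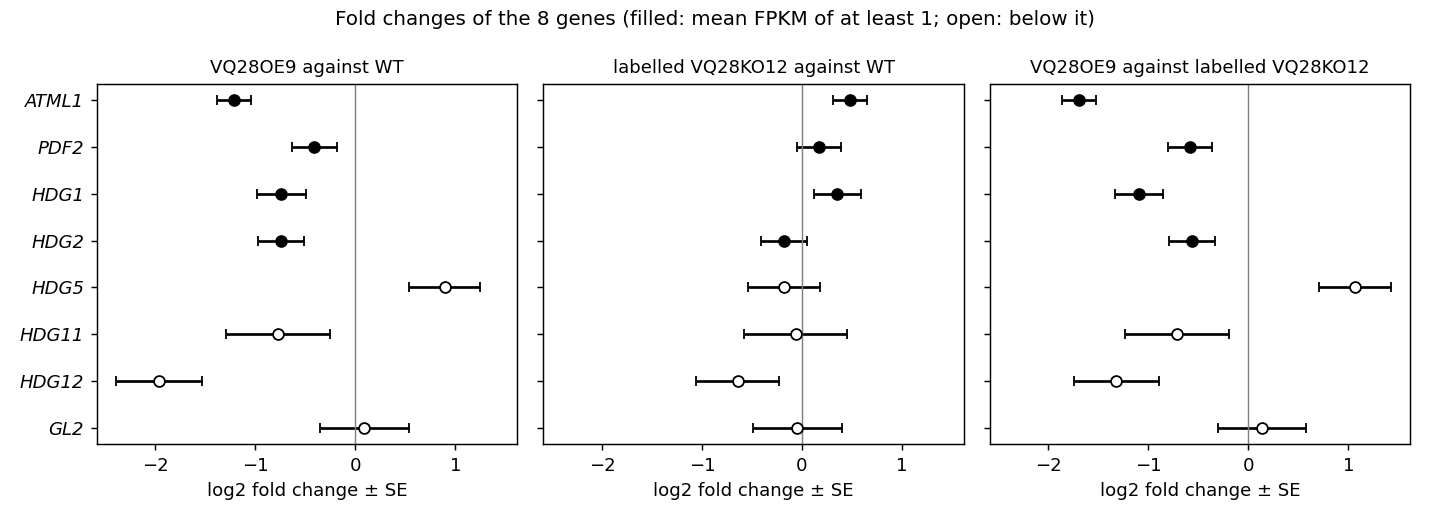
Log2 fold change ± SE of the 8 members in the 3 comparisons, filled where the mean was at least 1 FPKM and open below it. ATML1 lies at -1.21 in VQ28OE9 against WT, and the widest SE belong to HDG11, HDG12 and GL2.

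Read against all genes, the member counts were these. In VQ28OE9 against WT, 1 of the 4 tested members, ATML1, was among the genes past the threshold, beside 2.31% of the 16050 tested genes in either direction and 0.935% in the lower one, and since ATML1 was chosen on this contrast nothing is read from that count. Among all 8 members, VQ28OE9 lay wholly under WT for 3 (ATML1, HDG1 and HDG12), beside 8.08% of the 23317 genes with a count, and wholly above it for 0, beside 10.6%. The median log2 fold change of the 4 tested members was -0.74, beside -0.0029 for all tested genes. ATML1 enters the counts without overlap and this median. Since the set was chosen on its level in this contrast, these too are a description from which nothing is read.

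In the libraries labelled VQ28KO12 against WT, edgeR called 0 of the 3 members under test (PDF2, HDG1 and HDG2), beside 0.00623% of tested genes, which is 1 gene. Those at an unadjusted p under 0.05 numbered 808, with 0 of the 3. DESeq2 called 39 genes and limma on log2(FPKM + 1) called 3 genes, each with 0 of the 3. Without overlap, 1 member of 8 was higher (ATML1) beside 6.65% of genes, and 1 was lower (HDG12) beside 2.78%. With ATML1, the median log2 fold change of the 4 members averaging 1 FPKM or more was 0.26 as a description, beside 0.0013 for all tested genes.

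In VQ28OE9 against the libraries labelled VQ28KO12, 1 of the 3 members under test, HDG1, was past the threshold and lower, beside 2.62% of tested genes in that direction and 6.33% in either, and 0 were past it and higher, beside 3.71%. The HDG1 call was lost without any single library of either genotype, as given above. Of the 8, 4 were lower without overlap (ATML1, HDG1, HDG2 and HDG12), beside 11.8% of genes with a count, and 1 was higher (HDG5), beside 9.88%. ATML1 enters these counts without overlap as a description, since the set was chosen on its level in the same VQ28OE9 libraries. With ATML1, the median log2 fold change of the 4 members averaging 1 FPKM or more was -0.84, beside -0.0071 for all tested genes. This comparison shares its VQ28OE9 libraries with VQ28OE9 against WT and its libraries labelled VQ28KO12 with the comparison of these against WT, so the 3 sets of values are not separate measurements.

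The class has 16 genes in all, and of the 8 outside the members only ANL2 was expressed at a level that could be tested. ANL2, known for anthocyanin accumulation in leaves and for root and cuticle development, was at 10.1, 8.86 and 6.86 FPKM in VQ28OE9, 12.9, 12.3 and 14.3 FPKM in the libraries labelled VQ28KO12, and 11.2, 9.47 and 8.51 FPKM in WT. VQ28OE9 lay under all libraries labelled VQ28KO12 and overlapped WT. The log2 fold changes were -0.20 ± 0.16, 0.39 ± 0.16 and -0.59 ± 0.16 (SE) for VQ28OE9 against WT, the libraries labelled VQ28KO12 against WT and VQ28OE9 against those, none past the threshold with edgeR (adjusted p = 0.608, 0.982 and 0.0637). With DESeq2, ANL2 passed in the last of these, beside 1957 genes in all. The values were -0.14, 0.31 and -0.45 without replicate 3 of VQ28OE9 and of WT, and -0.20, 0.55 and -0.75 with replicate 3 as the only library labelled VQ28KO12, again none past the threshold (adjusted p = 0.127 to 0.813). FWA, HDG3, HDG8 and HDG9 had no count in any library, and HDG4, HDG7 and HDG10 reached at most 0.134 FPKM.

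Ordered by level per length, ATML1, ANL2 and PDF2 led in WT at means of 9.96, 9.74 and 8.22 FPKM with overlapping ranges, followed without overlap by HDG2 and HDG1 at 4.39 and 4.21 FPKM, which overlapped each other. HDG5, HDG12, GL2 and HDG11 came last at means of 0.62 FPKM and below, each with a range that overlapped the next. In VQ28OE9 the order at the top was ANL2, PDF2 and ATML1, at 8.62, 6.29 and 4.38 FPKM with overlapping neighbours, and in the libraries labelled VQ28KO12 it was ATML1, ANL2 and PDF2, at 14.4, 13.1 and 9.55 FPKM, where PDF2 lay under the ANL2 range.

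Summed over the 16 genes, the class reached 26.6, 29.9 and 23.3 FPKM in VQ28OE9, 51.2, 46.1 and 48.0 FPKM in the libraries labelled VQ28KO12, and 41.6, 34.5 and 39.4 FPKM in WT. The 3 genotypes did not overlap in this sum, but ATML1, on whose level the members were chosen, is part of it. The separation is therefore a description. The 8 genes outside the members summed to 6.86 to 10.2 FPKM in VQ28OE9 and 8.51 to 11.3 FPKM in WT, which overlapped. In the libraries labelled VQ28KO12 they summed to 12.3 to 14.3 FPKM. ATML1 made up 12.4%, 16.5% and 21.1% of the 16-gene sum in VQ28OE9, 29.9%, 31.7% and 27.8% in the libraries labelled VQ28KO12, and 21.8%, 26.7% and 29.5% in WT. Its share in every VQ28OE9 library was below that in every other library. The share of WT replicate 3, which stood apart, fell within the range of the libraries labelled VQ28KO12.

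**Figure D3:**
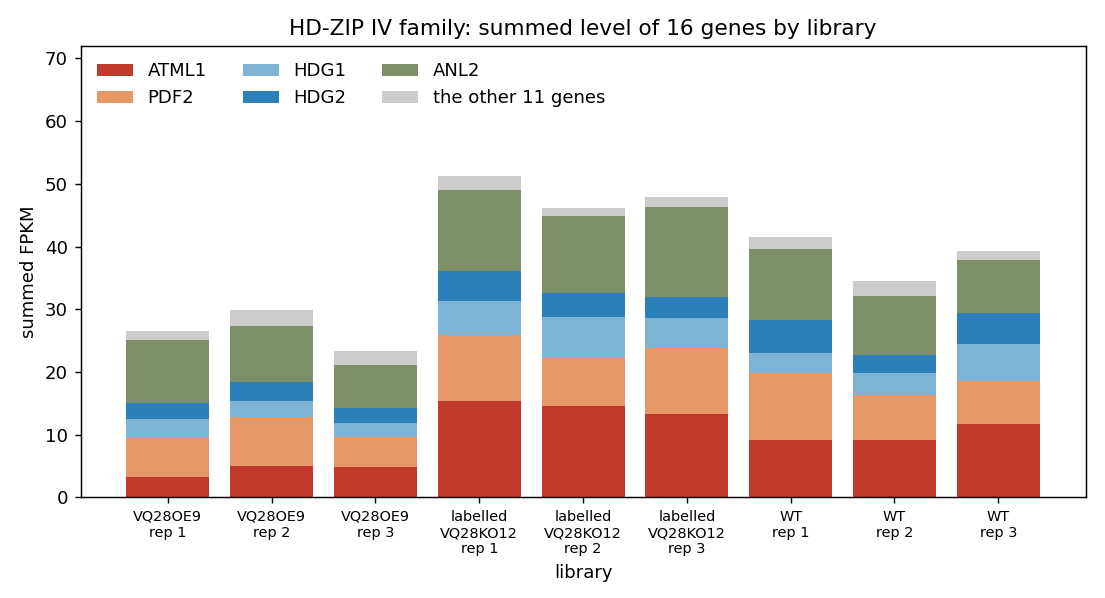
Summed FPKM of the 16 HD-ZIP IV genes in each library, stacked by gene, with VQ28OE9 at the left, the libraries labelled VQ28KO12 in the middle and WT at the right. The bars reach 23.3 to 29.9 FPKM in VQ28OE9, 46.1 to 51.2 FPKM in the libraries labelled VQ28KO12 and 34.5 to 41.6 FPKM in WT, and the ATML1 part differs most between them.

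Genes of epidermal identity and signalling were read as a list of 9, of which 6 were tested. With edgeR, 0 of the 6 passed in any comparison. Beside this list and those below, edgeR called 2.31% of all tested genes in VQ28OE9 against WT, at a median log2 fold change of -0.0029. In the libraries labelled VQ28KO12 against WT it called 0.00623%, at a median of 0.0013. In VQ28OE9 against the libraries labelled VQ28KO12 it called 6.33%, at a median of -0.0071. In VQ28OE9 against WT all 6 log2 fold changes were negative, with a median of -0.30, and the smallest p belonged to LTPG1, a lipid transfer protein of the cuticle, at -0.43 ± 0.19 (SE, adjusted p = 0.284). In VQ28OE9 against the libraries labelled VQ28KO12 all 6 were negative too, with a median of -0.42. There FDH, a fatty acid elongase that keeps epidermal surfaces from fusing, had the smallest p, at -0.46 ± 0.13 (adjusted p = 0.0738). The median in the libraries labelled VQ28KO12 against WT was 0.18, and ALE2, a receptor-like kinase of protoderm formation, stood at 0.24 (adjusted p = 1). At an unadjusted p under 0.05 there was 1 of the 6 genes in VQ28OE9 against WT, 3 in VQ28OE9 against the libraries labelled VQ28KO12 and 0 in the comparison of these with WT. DESeq2 called LTPG1 and FDH in VQ28OE9 against the libraries labelled VQ28KO12, beside 1957 genes in all. Limma called FDH there, beside 1008 genes in all. Neither tool called any of the 6 in the other comparisons. How many genes in all stood at an unadjusted p under 0.05 was counted only for the libraries labelled VQ28KO12 against WT. List counts at that p are thus a description in the comparisons of VQ28OE9.

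PDF1, an L1-layer gene, had at most 0.445 FPKM in any library and was not tested. It stood at 0.251, 0.445 and 0.286 FPKM in VQ28OE9, at 0, 0 and 0.123 FPKM in the libraries labelled VQ28KO12, and at 0, 0.0872 and 0.182 FPKM in WT. All 3 VQ28OE9 libraries were above the 6 others, at 23 to 44 units per library. ACR4, also of the epidermal list, averaged 0.599 FPKM and was not tested. Its log2 fold change was 0.27 ± 0.31 (SE) in VQ28OE9 against WT, and 0.06 ± 0.31 against the libraries labelled VQ28KO12. ALE1, a subtilase of the embryo and endosperm, had no count in any library.

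Among 21 genes of cuticle regulation, cutin synthesis and export, 12 were tested. In VQ28OE9 against WT edgeR called 0 of the 12, with 4 at an unadjusted p under 0.05. Their median was -0.47 with 11 of 12 negative, and BDG1 had the smallest p, at -0.90 ± 0.22 (SE, adjusted p = 0.0699). DESeq2 called CYP86A2 and BDG1 in this comparison, beside 1358 genes in all, and limma called 0, beside 472 genes in all.

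In VQ28OE9 against the libraries labelled VQ28KO12, 2 of the 12 cuticle genes fell, beside 2.62% of tested genes in that direction, and 10 did not pass, with a median of -0.50. DESeq2 called 4 of the 12 (GPAT4, CYP86A2, BDG1 and ABCG11), beside 1957 genes in all. Limma called 3 (GPAT4, CYP86A2 and BDG1), beside 1008 genes in all, and 4 stood at an unadjusted p under 0.05. CYP86A2, a fatty acid hydroxylase of cutin synthesis, was at 197, 200 and 244 FPKM in VQ28OE9, 345, 351 and 346 FPKM in the libraries labelled VQ28KO12, and 292, 263 and 319 FPKM in WT. Its log2 fold change was -0.67 ± 0.13 (SE; edgeR, adjusted p = 0.0213). BDG1, a hydrolase-fold protein needed for an intact cuticle, was at 7.75, 9.45 and 11.4 FPKM in VQ28OE9, 19.1, 16.3 and 21.5 FPKM in the libraries labelled VQ28KO12, and 13.6, 15.9 and 22.8 FPKM in WT, and its log2 fold change was -0.97 ± 0.23 (adjusted p = 0.0346). All 3 VQ28OE9 libraries lay under the 6 others in both genes. Both calls were lost without VQ28OE9 replicate 1 or 2, without replicate 1 or 3 labelled VQ28KO12, and with replicate 3 as the only library so labelled, where the adjusted p was 0.136 for CYP86A2 and 0.12 for BDG1. Without replicate 3 of VQ28OE9 and of WT they were at -0.79 and -1.12 (adjusted p = 0.0102 and 0.0116). Between the libraries labelled VQ28KO12 and WT, edgeR, DESeq2 and limma each called 0 of the 12, with 0 at an unadjusted p under 0.05, and the smallest p was that of GPAT4, an acyltransferase of cutin synthesis, at 0.37 (adjusted p = 0.987). An L1 box stood before BDG1 and 4 others of the 21 cuticle genes, not before CYP86A2, and before 4 of the 9 genes of the first list, and nothing is drawn from its absence in this window.

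Among 19 genes of trichome and root hair patterning, the processes in which GL2, HDG11 and HDG12 act, 7 were tested. ZFP8, a zinc finger protein that promotes trichome formation, was at 2.80, 1.57 and 2.41 FPKM in VQ28OE9, 9.58, 10.04 and 10 FPKM in the libraries labelled VQ28KO12, and 4.68, 7.06 and 13.3 FPKM in WT. It was the 1 gene of the 7 past the threshold, and fell in VQ28OE9 against WT by a log2 fold change of -1.91 ± 0.37 (SE; edgeR, adjusted p = 0.0352) and against the libraries labelled VQ28KO12 by -2.09 ± 0.37 (adjusted p = 0.0161), beside 0.935% and 2.62% of tested genes lower in these comparisons. The VQ28OE9 libraries lay under all 6 others. Against WT the call held in 9 of 19 alternatives. It was lost with only the VQ28OE9 and WT libraries in the fit, and without replicate 3 of VQ28OE9 and of WT (-1.44, adjusted p = 0.0878). It was also lost with replicate 3 as the only library labelled VQ28KO12. Leaving out any single library ended the call too, except for WT replicate 1 and replicate 2 labelled VQ28KO12. Against the libraries labelled VQ28KO12 it held in 16 of 19, and was lost without replicate 1 or without replicate 3 of that genotype and with replicate 3 as its only library (adjusted p = 0.108). For the libraries labelled VQ28KO12 against WT, edgeR, DESeq2 and limma each called 0 of the 7, with 0 at an unadjusted p under 0.05. TRY, an inhibitor of trichome formation in neighbouring cells, had the smallest p there at -0.66 (adjusted p = 0.982). The list medians were -0.16 in VQ28OE9 against WT, -0.23 in the libraries labelled VQ28KO12 against WT, and 0.14 between the lines. GL1, which starts trichome formation, had no count in any library.

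Guard cells are the other specialised cells of the leaf epidermis, and 4 of 9 genes of guard cells and their lineage were tested. In VQ28OE9 against WT, 2 of the 4 rose, beside 1.37% of tested genes in that direction. HT1, a kinase of the stomatal response to carbon dioxide, was at 4.41, 3.98 and 5.01 FPKM in VQ28OE9, 3.00, 3.32 and 3.37 FPKM in the libraries labelled VQ28KO12, and 1.44, 2.21 and 1.99 FPKM in WT. Its log2 fold change against WT was 1.22 ± 0.23 (SE; edgeR, adjusted p = 0.0307). FAMA, the transcription factor that ends division and sets guard cell fate, was at 12, 9.50 and 8.92 FPKM in VQ28OE9, 8.77, 8.29 and 6.59 FPKM in the libraries labelled VQ28KO12, and 5.30, 5.57 and 6.39 FPKM in WT, and its log2 fold change against WT was 0.80 ± 0.16 (adjusted p = 0.0406). In both genes the 3 genotypes did not overlap, with VQ28OE9 highest and WT lowest. Of the others, KAT1, a guard cell potassium channel, stood at -0.23 ± 0.26 (adjusted p = 0.736) and MYB60, a transcription factor of guard cells, at 0.78 ± 0.30 (adjusted p = 0.21), with overlap between VQ28OE9 and WT in both. The list median was 0.79. Both calls were lost with only the VQ28OE9 and WT libraries in the fit and without any single VQ28OE9 or WT library, and that of FAMA also without replicate 1 or 2 labelled VQ28KO12. Without replicate 3 of VQ28OE9 and of WT the adjusted p was 0.124 for HT1 and 0.0725 for FAMA, and with replicate 3 as the only library labelled VQ28KO12 it was 0.0709 for HT1 and 0.0733 for FAMA.

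The 9 guard cell genes summed to 21.2 to 25.0 FPKM in VQ28OE9, 17.8 to 24.2 FPKM in the libraries labelled VQ28KO12 and 14.5 to 16.6 FPKM in WT. This sum was above WT in both altered genotypes, which overlapped each other, while ATML1 was below WT in VQ28OE9 and above it in the libraries labelled VQ28KO12. In the comparison of those libraries with WT edgeR called 0 of the 4 guard cell genes, with 2 at an unadjusted p under 0.05, and HT1 stood at 0.73 (adjusted p = 0.861). In VQ28OE9 against the libraries labelled VQ28KO12 it also called 0, with 2 at an unadjusted p under 0.05, and FAMA stood at 0.40 (adjusted p = 0.198). DESeq2 and limma called 0 in both.

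**Figure D4:**
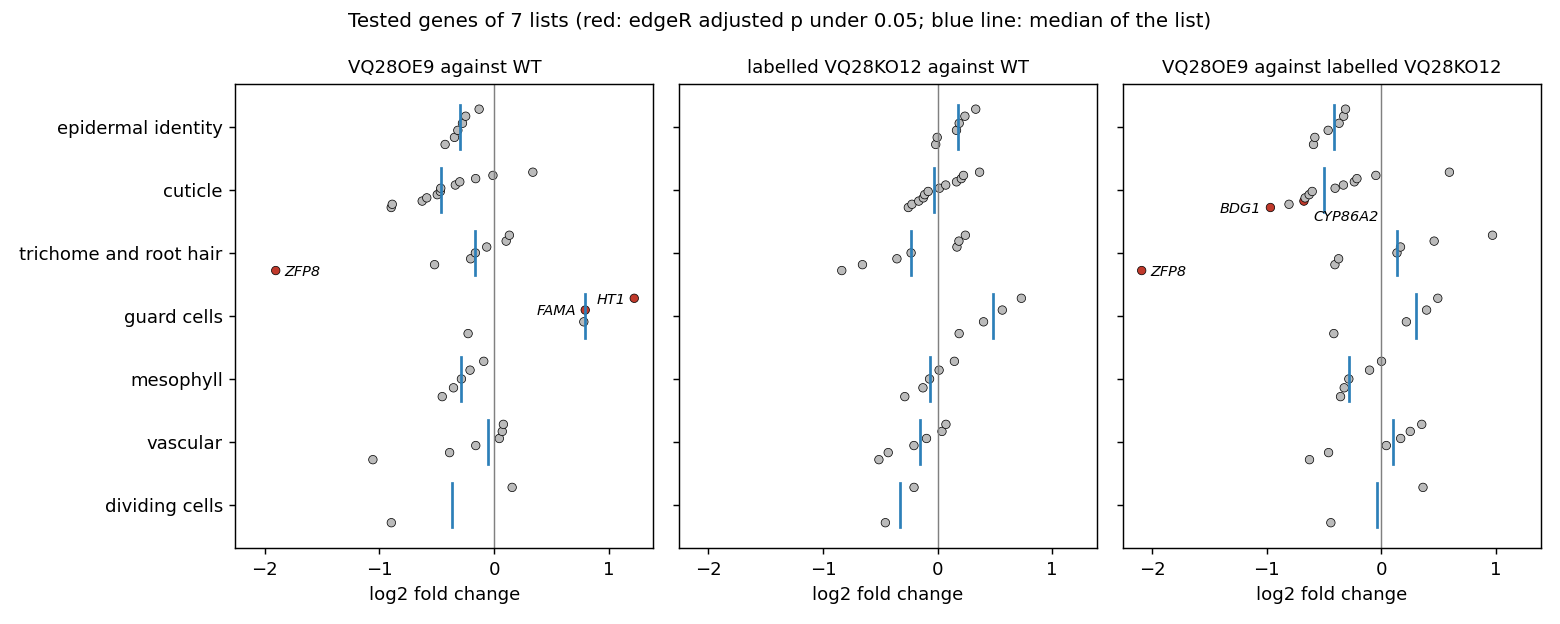
Log2 fold change of each tested gene of 7 lists in the 3 comparisons, with the list median as a vertical line and genes past the edgeR threshold filled in red and named. The epidermal and cuticle medians lie at -0.30 and -0.47 in VQ28OE9 against WT, the guard cell median at 0.79, and no gene is named in the middle panel.

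Markers of other leaf tissues were read beside the members. The 5 mesophyll genes summed to 33350 to 39770 FPKM in VQ28OE9, 37300 to 48020 FPKM in the libraries labelled VQ28KO12 and 39090 to 44750 FPKM in WT. The 6 vascular genes summed to 419 to 469 FPKM, 435 to 474 FPKM and 432 to 496 FPKM in these 3 genotypes. The mesophyll log2 fold changes were negative for 5 of 5 genes in VQ28OE9 against WT, with a median of -0.28. They were negative for 3 of 5 in the libraries labelled VQ28KO12 against WT, at a median of -0.07, and for 4 of 5 in VQ28OE9 against those, at -0.28. The vascular ones were negative for 3 of 6, 4 of 6 and 2 of 6 genes in the same comparisons, with medians of -0.06, -0.15 and 0.11. In VQ28OE9 against WT edgeR called 0 of the 5 mesophyll genes, with RBCS1A at -0.45 (adjusted p = 0.094), and 0 of the 6 vascular genes, with the sugar exporter SWEET12 at -1.06 (adjusted p = 0.0871). At an unadjusted p under 0.05 there were 2 of each. DESeq2 called 1 of each, RBCS1A and SWEET12, beside 1358 genes in all, and limma called 0. Against WT, 0 genes of both lists were called by the 3 tools in the libraries labelled VQ28KO12, with 1 mesophyll and 0 vascular genes at an unadjusted p under 0.05, and the smallest p were those of the carbonic anhydrase gene CA1 at -0.29 (adjusted p = 0.982) and the phloem regulator APL at -0.51 (adjusted p = 0.987). In VQ28OE9 against the libraries labelled VQ28KO12 all 3 tools again called 0 of both, with 1 of each at an unadjusted p under 0.05, RBCS1A at -0.32 (adjusted p = 0.176) and the sugar exporter SWEET11 at -0.46 (adjusted p = 0.16). The 5 genes of dividing cells summed to at most 5.07 FPKM in any library, and edgeR called 0 of the 2 that were tested in any comparison. CDKB2;1, a kinase of dividing cells, had the smallest p in VQ28OE9 against WT, at -0.90 (adjusted p = 0.169), and was the 1 of these at an unadjusted p under 0.05. It also had the smallest p in the libraries labelled VQ28KO12 against WT, at -0.46 (adjusted p = 1), and in VQ28OE9 against those, at -0.44 (adjusted p = 0.479), with 0 at an unadjusted p under 0.05, and DESeq2 and limma called 0 throughout. The part that such tissue shifts have in the member values was not tested.

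The genes whose level followed ATML1 most closely over the 9 libraries were ranked by Pearson's r of log2(FPKM + 1) among 10603 other genes with a mean of at least 5 FPKM. The first 6 were XTH32, a cell wall xyloglucan enzyme, at 0.990, the chorismate mutase gene CM3 at 0.990, AT2G19780, annotated as a leucine-rich repeat protein, at 0.977, AT2G03350, annotated only by a domain of unknown function, at 0.973, PRE1, a small helix-loop-helix growth regulator, at 0.972, and AT5G42620, annotated as a metallopeptidase, at 0.971. The 9 points come from 3 genotypes that differ in ATML1, so any gene that differs between the genotypes in the same order has a high value, and no p is given. XTH32 was at 2.58, 3.44 and 3.39 FPKM in VQ28OE9, 7.82, 8.28 and 7.59 FPKM in the libraries labelled VQ28KO12, and 5.29, 5.05 and 5.91 FPKM in WT. PRE1 was at 3.62, 4.75 and 3.40 FPKM in VQ28OE9, 24.2, 22.9 and 22.9 FPKM in the libraries labelled VQ28KO12, and 8.98, 14.2 and 15.8 FPKM in WT. Among the members the same r with ATML1 was 0.868 for HDG1, 0.694 for HDG2 and 0.625 for PDF2. For the low members it was 0.697 for HDG11, 0.689 for HDG12, -0.155 for GL2 and -0.726 for HDG5.

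ATML1 lies on the chromosome that also carries VQ28, 716043 bases from it. The nearest gene at lower coordinates, AT4G21745, is 4563 bases away and had no count in any library. The nearest at higher coordinates, the beta-glucosidase gene BGLU47, is 495 bases away and was at 0.488, 0.670 and 0.655 FPKM in VQ28OE9, 0.922, 0.581 and 0.624 FPKM in the libraries labelled VQ28KO12, and 0.577, 0.522 and 1.70 FPKM in WT. Its genotypes overlapped, and neither neighbour showed the order of levels seen in ATML1.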

How the data were processed

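The authors deposited 1 table of 33610 genes with an FPKM value (length- and library-scaled) and a whole-number count per library for 9 libraries, per the file headers. Libraries were poly(A)-selected and strand-marked with dUTP, per the labels' protocols. No aligner, counting tool or build is named in the files or labels. The deposited counts were handled as estimated counts, not raw ones, since 48.7% to 57.0% of values from 1 to 16 per library are multiples of 4. A gene the authors list at an FPKM of 0.0001 has no count and is given as 0. AT4G20000 was taken as VQ28, following the published family numbering.

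The 16050 genes averaging 1 FPKM or more were fitted together over 9 libraries, with 1 mean per genotype, by edgeR 4.0.16 (R 4.3.3, TMM, quasi-likelihood test, two-sided). "Past the threshold" means a Benjamini-Hochberg adjusted p under 0.05 over all tested genes. SE is the size of the log2 fold change over the root of its F statistic. Means and SDs are of deposited FPKM. DESeq2 1.42.0 and limma 3.58.1 on log2(FPKM + 1) or + 0.1 were alternatives among 19, given in the closing section. The steps were tested on simulated counts. Replicates of a genotype shared identical units in at most 0.343% of tested genes, so none was a repeat deposit.

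The members and the 9 other lists (89 genes) were chosen with earlier results of these data known, and no p was adjusted over a list alone. Named were all members and HD-ZIP IV genes, up to 3 list genes past the threshold per comparison (else the gene with the smallest p), the 6 genes most like ATML1, and genes that overlap a member or adjoin ATML1. HDG4, PDF1, ACR4, ALE1, GL1, KAT1, MYB60 and genes called by an alternative tool alone were named after their values were seen. A neighbouring gene and a sequence that these rules would add are not reported here. Sequences come from RefSeq's TAIR10.1, read with Python 3.11.15 and Biopython 1.88, and the coding sequences of pairs were aligned globally.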

Additional observations from a re-analysis of the deposited data

How the results depend on the processing

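Direction was kept in all 19 alternatives for ATML1, PDF2, HDG1, HDG2 and HDG12 in the 3 comparisons. In VQ28OE9 against WT, ATML1 ranged from -1.32 to -1.04 (log2), PDF2 from -0.58 to -0.19, HDG1 from -0.91 to -0.32, HDG2 from -0.97 to -0.53, HDG5 from 0.43 to 1.26, HDG11 from -1.34 to -0.18 and HDG12 from -2.34 to -0.40. Among the low members, the sign of GL2 in the 3 comparisons and of HDG5 and HDG11 in the libraries labelled VQ28KO12 against WT changed in 1 to 4 alternatives, all of these values lying between -0.40 and 0.48. The members past the threshold in VQ28OE9 against WT, a description since the set was chosen on it, numbered 1, ATML1. They numbered 2 with DESeq2, which added HDG2, and 1 to 2 with single libraries left out, HDG2 being added without WT replicate 2. With no filter on low values they also numbered 2, but there all 8 members were in the fit and HDG12 was the one added. Among all genes, 370 were past it, against 1358 with DESeq2, 163 with only the 6 libraries compared, 94 without replicate 3 of VQ28OE9 and of WT, 166 without replicates 1 and 2 labelled VQ28KO12, and 46 to 337 with single libraries left out. In the libraries labelled VQ28KO12 against WT, 1 gene was past it, against 39 with DESeq2, 3 with limma on log2(FPKM + 1), 2 with no filter, 3 with units divided by 4, 2 with only the 6 libraries compared, 5 with replicate 3 as the only library so labelled, and 1 to 4 with single libraries left out. In VQ28OE9 against the libraries labelled VQ28KO12, 2 members (ATML1, a description, and HDG1) and 1016 genes were past it, against 1957 genes with DESeq2, 0 members and 10 genes with replicate 3 as the only library so labelled (a lone library assumed to vary like the others), and 1 to 2 members and 131 to 1241 genes with single libraries left out. Leaving libraries out means fewer samples, and the cause of the other shifts was not tested. Correlations between libraries with the same replicate number ran from -0.199 to 0.309, highest for replicate 3 of VQ28OE9 and of WT. Not all were over 0.1, so the numbers were not taken to pair the libraries, and not every library correlated best with its own number. A fit with the replicate number as a block called the same members, and 468, 1 and 1055 genes in the 3 comparisons in the order above. With the block FAMA was lost in VQ28OE9 against WT (adjusted p = 0.0551), BDG1 was gained there (0.0267), and FDH was gained in VQ28OE9 against the libraries labelled VQ28KO12 (0.0457). At about 4 units per fragment, 0.1 FPKM rests on a handful of fragments, so HDG11, HDG12 and GL2 are limited by depth.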
